A study of Homo sapiens with 12 samples.

Results

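The genes described here are 10 transcriptional targets of YAP and its DNA-binding partners, the TEAD factors: CCN1, CCN2, ANKRD1, AMOTL1, AMOTL2, AJUBA, MYOF, ASAP1, LATS2 and CRIM1. They were chosen by name from knowledge of the pathway, with earlier results of these libraries known. The counts of members called are thus no independent evidence of a direction. Each member was represented by the RefSeq transcript that drew the highest count summed across the libraries. All 10 were among the 28087 genes of the table, and 9 were among the 13129 genes with enough counts to be tested. ANKRD1 was not. In melanoma cells given vesicles of M1 macrophages, 5 of the 9 fell against the PBS control (MYOF, AJUBA, ASAP1, AMOTL1 and AMOTL2), CCN1 rose, and CCN2, CRIM1 and LATS2 did not pass the test. Among all tested genes 13.7% were called lower and 14.3% higher in that comparison. With vesicles of M0 or M2 macrophages none of the 9 was called against the control.

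Poly(A) RNA of the established human melanoma line MV3 was sequenced in 4 groups of 3 libraries. All cells were grown in 12-well plates and held for 3 h in RPMI medium with 1% serum depleted of extracellular vesicles (EVs), and then for 24 h with one of 4 additions. The Ctrl group received PBS. The M0 EV, M1 EV and M2 EV groups received 1e10 particles per well of vesicles collected by ultracentrifugation from THP-1 cells, a human monocytic leukaemia line, driven into an M0, M1 or M2 macrophage state over 48 h with agents that the labels leave unnamed. The replicates are numbered, but nothing says that they came from separate cultures or vesicle preparations, so the p-values reflect only the spread among these libraries, which may be technical.

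The Hippo pathway is a kinase cascade that restrains growth when cells are crowded or unattached. Its kinases MST (STK3 and STK4) and LATS phosphorylate the coactivators YAP (YAP1) and TAZ (WWTR1), which keeps them out of the nucleus. Unphosphorylated YAP and TAZ enter the nucleus, bind TEAD factors on DNA and raise the transcription of genes of matrix, adhesion and growth. Several of these targets feed back on the pathway as inhibitors of YAP, LATS2 and the angiomotins among them. In melanoma YAP and TAZ activity is known mainly for its part in invasion and drug tolerance.

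The TEAD factors bind a short DNA element, GGAATG on one strand and CATTCC on the other, and this hexamer was looked for on both strands of the promoter windows of the members. The members were chosen as known TEAD targets, and for genes such as CCN2 and ANKRD1 that knowledge rests in part on such elements, so the counts are a description and no independent evidence. RefSeq promoter sequence (GRCh38.p14), the 250 bases before a start site and the 50 bases that begin with it, was at hand for 7 of the 10 members in 9 windows. There was none for CCN1, ASAP1 or CRIM1. At least 1 hexamer was present in 5 of the 9 windows, each of a different member, while 14% of all 35116 windows of this length held one. The window of CCN2 had 3, which 0.128% of all windows reached, and that of ANKRD1 had 2, reached by 1.37%. AMOTL2 and AJUBA each had 1, in the second of their start sites, and LATS2 had 1, starting at base 10, where the start site is base 1. No hexamer was found in the windows of MYOF or AMOTL1, or at the first start sites of AMOTL2 and AJUBA. A match of this kind is a description of the letters and does not show that a factor binds there.

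The stretches that hold the hexamers are shown 5′ to 3′ on the strand of the gene, with each hexamer in capitals. CCN2 (chr6:131951393-131951572, minus strand) is given from base -200 to -21 relative to its start, since its elements stand closest together. MYOF (chr10:93482355-93482534, minus strand), the member with the largest change in these data, is given over the same interval and holds none. For the other members the 30 bases around each hexamer are shown: ANKRD1 at chr10:90921290-90921319 (site 1) and chr10:90921198-90921227 (site 2), AMOTL2 at chr3:134374499-134374528, AJUBA at chr14:22976884-22976913 and LATS2 at chr13:21061560-21061589, all on the minus strand.
CCN2: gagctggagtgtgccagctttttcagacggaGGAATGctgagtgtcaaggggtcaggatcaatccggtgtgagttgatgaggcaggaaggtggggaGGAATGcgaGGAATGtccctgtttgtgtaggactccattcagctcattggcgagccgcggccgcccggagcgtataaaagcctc
MYOF: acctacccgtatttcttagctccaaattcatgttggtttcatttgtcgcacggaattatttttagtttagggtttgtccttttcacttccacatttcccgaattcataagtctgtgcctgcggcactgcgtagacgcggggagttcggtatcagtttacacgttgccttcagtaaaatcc
ANKRD1 site 1: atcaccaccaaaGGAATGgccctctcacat
ANKRD1 site 2: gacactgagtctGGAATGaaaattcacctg
AMOTL2: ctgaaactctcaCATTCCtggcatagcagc
AJUBA: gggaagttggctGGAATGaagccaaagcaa
LATS2: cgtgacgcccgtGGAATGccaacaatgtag
The hexamers of CCN2 began at -169, -104 and -95, and those of ANKRD1 at -220 and -128, all reading GGAATG on the gene's strand and without overlap. In AMOTL2 the hexamer at -69 read CATTCC, so it lay on the other strand, while that of AJUBA at -59 and that of LATS2 at 10 read GGAATG. Base composition differed between the windows: the CCN2 window was 54.3% G and C, that of ANKRD1 52.7% and that of MYOF 46.7%, against a median of 58.7% over all windows. Of the 2 members with more than 1 hexamer, CCN2 was not called in M1 EV against Ctrl and ANKRD1 was scarcely detected. Sequence outside these windows was not searched, and a link between hexamers and the changes was not tested.

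**Figure D1:**
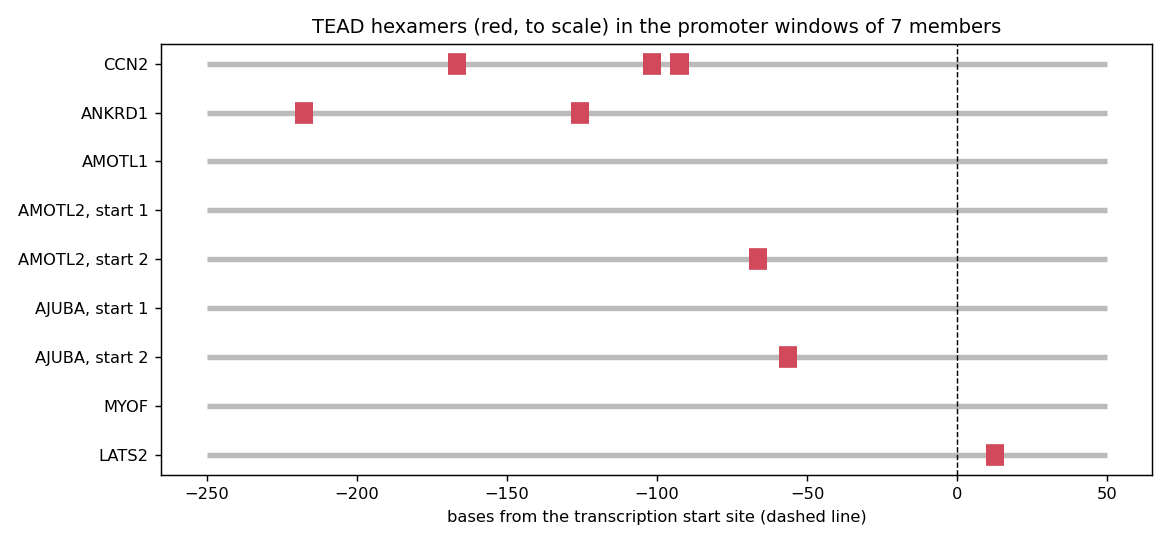
Positions of the TEAD hexamer in the 9 promoter windows of 7 members; the x axis is the distance in bases from the start site, each grey line is one window, and red marks, drawn to scale, show matches on either strand. CCN2 holds 3 hexamers, ANKRD1 holds 2, and the MYOF and AMOTL1 windows hold none.

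Levels were compared between genes as CPM (a gene's counts scaled to a common library size) per kilobase of the counted transcript. MYOF had the highest level, with a median of 154 over the 12 libraries (104 to 159), and CCN1 was next at 140 (130 to 157), so that their ranges overlapped. The order of these 2 depended on the group: in M1 EV the mean was 152 for CCN1 and 105 for MYOF, while MYOF was the higher in Ctrl (158 and 133), M0 EV (154 and 138) and M2 EV (154 and 142). ASAP1 followed at 69.8, separate from its neighbours. CCN2 at 49 and CRIM1 at 47.3 overlapped each other and were followed by AMOTL2 at 29.7. AJUBA at 18.7 and AMOTL1 at 18.2 also overlapped, LATS2 was far lower at 3.71, and ANKRD1 stood last at 0.052. The members thus spanned from abundant transcripts to one near the limit of detection.

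The comparison of M1 EV with Ctrl asks what vesicles of M1 macrophages do to these genes. Levels from here on are in CPM, and differences are log2 fold changes. Their standard error (SE) was derived from edgeR's quasi-likelihood test, as the absolute log2 fold change over the square root of the F statistic. The 95% intervals rest on this SE and can differ slightly from the test. Adjusted p-values are Benjamini-Hochberg values over all tested genes. In bulk RNA a lower level in every cell and fewer cells that express a gene cannot be told apart.

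Among the secreted and matrix-facing members, CCN1 was the only one called, and it moved up. CCN1 (chr1:85580761-85583950), a matrix protein that binds integrins, had 309, 298 and 307 CPM in Ctrl and 361, 351 and 336 in M1 EV. Every M1 EV library was above every Ctrl library, a rise of 14.4% (log2 0.19 ± 0.034, adjusted p = 2.63e-05). CCN2 (chr6:131948176-131951372), the connective tissue growth factor and the most used reporter of YAP activity, had 114, 113 and 117 CPM in Ctrl and 111, 108 and 110.2 in M1 EV. The M1 EV libraries lay just below those of Ctrl without overlap, yet the difference did not pass the test (log2 -0.064, 95% interval -0.15 to 0.022, adjusted p = 0.289). CCN1 and CCN2 belong to one protein family, but only CCN1 was called, and whether their responses differed was not tested. CRIM1 (chr2:36355778-36551135), a membrane protein that binds bone morphogenetic proteins, had 292, 272 and 278 CPM in Ctrl and 261, 275 and 270.2 in M1 EV. Its groups overlapped and it was not called (log2 -0.064, 95% interval -0.14 to 0.0082, adjusted p = 0.19).

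ANKRD1 (chr10:90912096-90921087), a nuclear ankyrin-repeat cofactor that is another common YAP reporter, was at the edge of detection in MV3 cells. The deposited counts of its transcript were 2, 1 and 1.5 in Ctrl, 0 in each M0 EV library, 0.5, 0.5 and 1.5 in M1 EV, and 1.5, 0 and 1.5 in M2 EV. The 12 libraries together held a count of 10. A count of 0 over the 3 M0 EV libraries allows up to 3 counts, or 0.0892 CPM over the group, and 3 counts in the other groups correspond to 0.0794 to 0.0972 CPM. A difference between groups was not detectable at this depth, and no fold change is given. Such limits cover counting error only, since copies made by PCR cannot be recognised here.

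The members that act inside the pathway, as inhibitors of YAP or of LATS, were lower in M1 EV where they were called. AMOTL1 (chr11:94706460-94876748), an angiomotin that holds YAP at junctions and in the cytoplasm, had 165, 167 and 163 CPM in Ctrl and 127, 140.3 and 143 in M1 EV. The groups were well apart, and AMOTL1 fell by 17% (log2 -0.27 ± 0.044, adjusted p = 6.9e-06). AMOTL2 (chr3:134355345-134375417), its close relative, had 139.7, 136 and 137 CPM in Ctrl and 128, 129 and 119 in M1 EV. It fell by 9.01% without overlap (log2 -0.14 ± 0.042, adjusted p = 0.0121), the weakest of the calls: without Ctrl replicate 1 the adjusted p was 0.0546 and without M1 EV replicate 3 it was 0.111.

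AJUBA (chr14:22971177-22982551), a LIM-domain protein of adherens junctions that binds and restrains LATS kinases, had 80.2, 87.8 and 86.5 CPM in Ctrl and 69.1, 67.2 and 68.1 in M1 EV. It fell by 19.7% (log2 -0.32 ± 0.046, adjusted p = 7.48e-07), with all M1 EV libraries below all others of the study. LATS2 (chr13:20973036-21061586), the kinase that phosphorylates YAP and TAZ, had 21.1, 20.4 and 20.8 CPM in Ctrl and 17.3, 18.8 and 19.1 in M1 EV. Its libraries did not overlap, but at this low level the error was larger and the difference was not called (log2 -0.17 ± 0.083, 95% interval -0.34 to -0.0047, adjusted p = 0.122).

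The members that work at membranes and adhesions fell, and one of them had the largest difference of all members. MYOF (chr10:93306429-93482334), a ferlin that serves membrane fusion and repair, had 1067, 1067 and 1046 CPM in Ctrl and 700.2, 715 and 698 in M1 EV. The groups were separated by many times their own spread, and MYOF fell by 33.6% (log2 -0.59 ± 0.03, adjusted p = 7.11e-19). Only 343 of the tested genes, 2.61%, had a lower log2 fold change than MYOF. ASAP1 (chr8:130052104-130443674), a GTPase-activating protein for ARF that shapes focal adhesions and invadopodia, had 449, 451 and 444 CPM in Ctrl and 354, 382 and 373 in M1 EV. It fell by 17.4% without overlap (log2 -0.28 ± 0.035, adjusted p = 5.36e-08).

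Over the 9 tested members the median log2 fold change of M1 EV against Ctrl was -0.17, beside 0.00063 over all tested genes. The 9 values ran from -0.59 for MYOF to 0.19 for CCN1, so the list did not shift as a block.

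**Figure D2:**
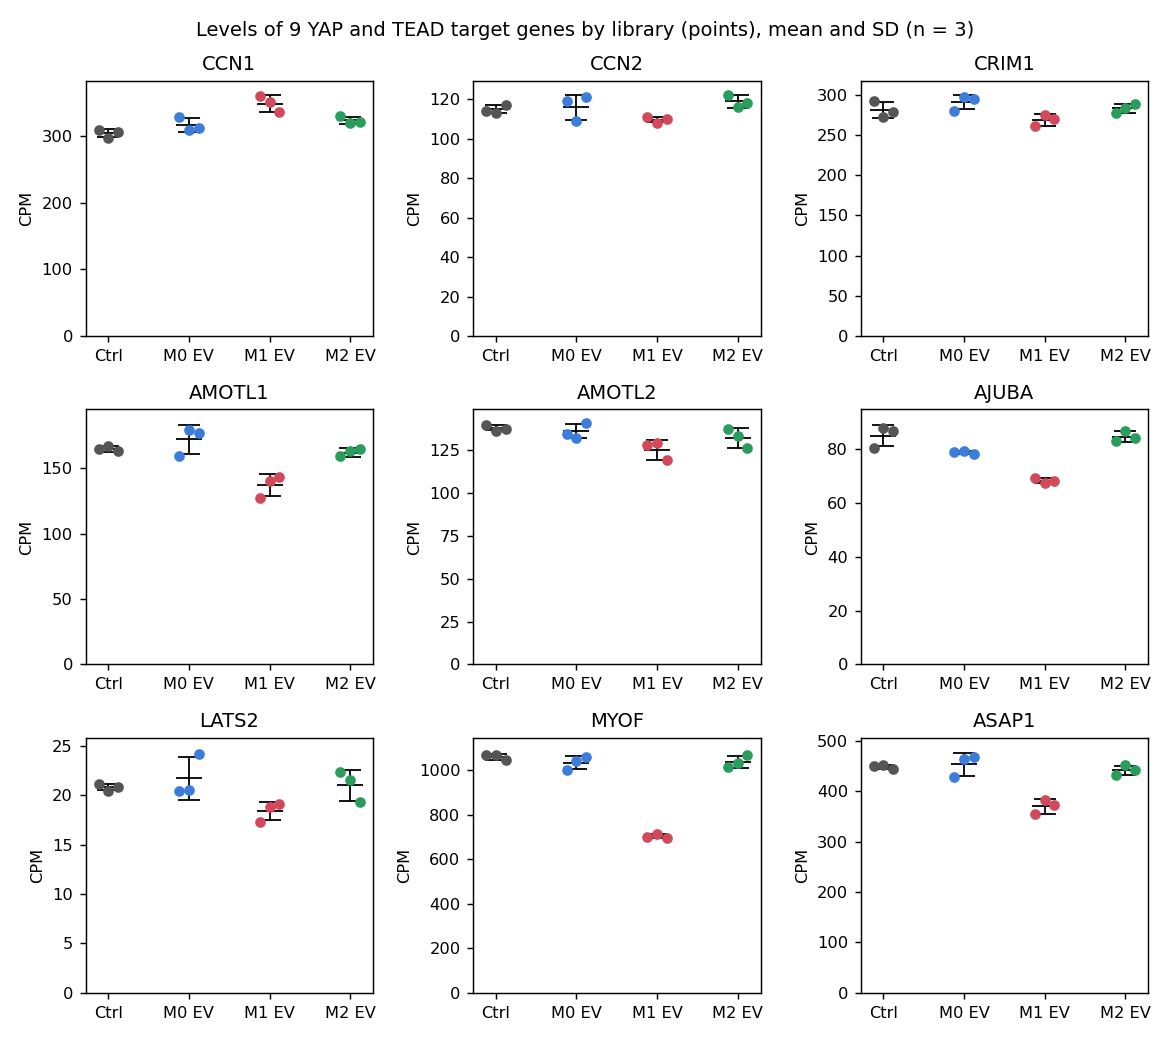
Levels in CPM of the 9 tested members in the 12 libraries; each panel is one gene with its own y axis from 0, points are libraries, the middle line is the group mean and the bars are the SD (n = 3). MYOF lies at 698 to 715 in M1 EV and at 1000.4 to 1067 in the other groups, while CCN1 is highest in M1 EV.

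Other transcripts of the same genes gave the same differences between M1 EV and Ctrl. The 3 annotated transcripts of AJUBA had log2 ratios of -0.32, -0.32 and -0.33, both of AMOTL1 had -0.27, both of MYOF had -0.59, all 5 of ASAP1 had -0.28, and the 4 of AMOTL2 had -0.14 or -0.13. Isoforms share exons, and their levels were nearly equal in most of these genes, so these are not independent measurements. By the GENCODE 29 annotation, exons of CCN2 overlapped 195 bases of the antisense gene AL133346.1, those of AMOTL1 496 bases of AP002383.2 and those of CRIM1 177 bases of AC007378.1. On the same strand AMOTL2 overlapped 187 bases of the pseudogene RPL39P5 and AJUBA 50 bases of AL132780.3. The sources used here do not say whether counting was strand-specific, so reads in these stretches cannot be assigned to one gene of a pair.

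The comparisons of M0 EV and M2 EV with Ctrl use the same control libraries as that of M1 EV. In M0 EV against Ctrl none of the 9 members was called by edgeR, DESeq2 or limma-voom, and 0.0152% of all tested genes (2) were called by edgeR. One member had an unadjusted p below 0.05: AJUBA, with 78.8, 79.1 and 77.9 CPM in M0 EV, below each Ctrl library (log2 -0.11 ± 0.044, adjusted p = 0.844). MYOF had 1000.4, 1043 and 1058 CPM in M0 EV, which overlapped Ctrl (log2 -0.037, 95% interval -0.095 to 0.022, adjusted p = 0.999). AMOTL1 had 159, 179 and 177 CPM and ASAP1 428, 463 and 468, both overlapping Ctrl on either side. The other members of the list showed log2 differences from -0.023 for AMOTL2 to 0.063 for LATS2. Of these, CCN1 lay above each Ctrl library, with 329, 310.1 and 312 CPM in M0 EV (log2 0.057, adjusted p = 0.999). The median over the members was 0.024, beside 0.0032 over all genes.

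In M2 EV against Ctrl none of the 9 was called by any of the 3 tools either (AJUBA and LATS2 had no adjusted p in DESeq2), and edgeR called 0.0457% of all tested genes (6). One member, CCN1, had an unadjusted p below 0.05, with 330.3, 320.2 and 322 CPM in M2 EV, above each Ctrl library (log2 0.087 ± 0.034, adjusted p = 0.667). AJUBA had 82.8, 86.6 and 83.9 CPM in M2 EV, within the range of Ctrl (log2 -0.0052, 95% interval -0.092 to 0.081, adjusted p = 0.994). MYOF had 1015, 1031 and 1067 CPM, overlapping Ctrl (log2 -0.03, 95% interval -0.089 to 0.029, adjusted p = 0.974). The median over the members was -0.0052, beside 0.0013 over all genes.

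The comparisons between vesicle types test directly whether the response to M1 vesicles differed from that to the others. In M1 EV against M0 EV 7 of the 9 members fell and CCN1 rose, while 12.8% of all tested genes were called lower and 12.5% higher. MYOF had the largest difference (log2 -0.55 ± 0.03, adjusted p = 5.98e-18), with 700.2 to 715 CPM in M1 EV and 1000.4 to 1058 in M0 EV. AMOTL1 was next (log2 -0.33 ± 0.043, adjusted p = 1.76e-07), and its lowest M0 EV library, at 159 CPM, was above its highest M1 EV library. ASAP1 fell by 18.3% (log2 -0.29 ± 0.035, adjusted p = 1.71e-08) and AJUBA by 13.3% (log2 -0.21 ± 0.046, adjusted p = 0.000654). CCN1 rose by 9.96% (log2 0.14 ± 0.034, adjusted p = 0.00228). This comparison and that with Ctrl share the M1 EV libraries.

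LATS2 and CRIM1, which were not called against Ctrl, were called here. LATS2 had 20.4, 20.5 and 24.2 CPM in M0 EV (log2 -0.23 ± 0.08, adjusted p = 0.0272), and the call was lost without M0 EV replicate 3, its highest library (adjusted p = 0.276), without M1 EV replicate 1 (adjusted p = 0.126) and in DESeq2 (adjusted p = 0.127), as well as with all transcripts of a gene added up (adjusted p = 0.0722). CRIM1 had 280.4, 297 and 295 CPM in M0 EV (log2 -0.11 ± 0.035, adjusted p = 0.0161), and the adjusted p was 0.0922, 0.0811 and 0.0996 without M0 EV replicate 2, M0 EV replicate 3 and M1 EV replicate 1, and 0.0635 with transcripts added up. LATS2 and CRIM1 have 1 transcript each, so adding up transcripts changed the counts of other genes of the fit and not their own. Transcripts of a gene often held nearly the same counts, as with 128587 and 128436.5 for those of MYOF. Their sum can thus count a shared read more than once, so this setting alone does not decide whether a call holds. AMOTL2 was called (log2 -0.11 ± 0.042, adjusted p = 0.0415), but held in 11 of 22 alternative analyses. Its call was lost without Ctrl replicate 1 or 3, M0 EV replicate 1 or 3, M2 EV replicate 2 or M1 EV replicate 3, the last giving the highest adjusted p, 0.253. With all libraries it was lost in DESeq2 (0.121), without a low-count filter (0.0634), with only the groups compared (0.0616) and with transcripts added up (0.0866). M0 EV replicates 2 and 3 differed by little more than sampling error (their chi-square was 1.03 per degree of freedom, beside 1.23 to 2.32 for the other pairs of a group, p = 0.00499). They were kept as separate libraries, and with their counts summed into 1 library CRIM1 (adjusted p = 0.0558) and AMOTL2 (adjusted p = 0.0677) were not called. The highest chi-square values per degree of freedom, 2 and 2.32, were those of M0 EV replicate 1 with the other libraries of its group. CCN2 did not pass (log2 -0.087, 95% interval -0.17 to -0.0026, adjusted p = 0.129), with groups that overlapped at 109 to 121 CPM in M0 EV, and was called only without M0 EV replicate 2 (adjusted p = 0.0352). These smaller differences thus depended on single libraries and on the settings, while MYOF, AMOTL1, ASAP1, AJUBA and CCN1 were called in all 22 alternatives. The median over the members was -0.21, beside -0.0063 over all genes.

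In M1 EV against M2 EV 5 of the 9 fell and CCN1 rose, beside 12.0% of all tested genes called lower and 12.6% higher. MYOF (log2 -0.56 ± 0.029, adjusted p = 3.61e-18), AJUBA (log2 -0.31 ± 0.044, adjusted p = 7.19e-07), ASAP1 (log2 -0.26 ± 0.035, adjusted p = 2.87e-07) and AMOTL1 (log2 -0.25 ± 0.043, adjusted p = 2.62e-05) were lower without overlap of the libraries. CCN2 fell by 7.47% (log2 -0.11 ± 0.041, adjusted p = 0.0422), from 122, 116 and 118 CPM in M2 EV, and the call held in 12 of 22 alternatives, with an adjusted p of 0.125 in DESeq2, 0.061 without a low-count filter and 0.107 with transcripts added up. It was lost without Ctrl replicate 1 and without each of the M1 EV and M2 EV libraries, at adjusted p-values from 0.0527 (M2 EV replicate 2) to 0.161 (M2 EV replicate 1). CCN1 rose by 7.72% (log2 0.11 ± 0.034, adjusted p = 0.0167), and its adjusted p was 0.11, 0.068 and 0.0512 without M1 EV replicate 1, M2 EV replicate 2 and M2 EV replicate 3, and 0.0546 with transcripts added up. CCN1 and CCN2 have 1 transcript each, so their own counts did not change in that setting. AMOTL2, CRIM1 and LATS2 did not pass, with log2 values of -0.071, -0.075 and -0.18, though LATS2 was called without M2 EV replicate 3 (adjusted p = 0.0364). The median over the members was -0.18, beside -0.0032 over all genes.

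In M2 EV against M0 EV none of the 9 members was called by edgeR, DESeq2 or limma-voom, and 0% of all tested genes were called by edgeR (446 had an unadjusted p below 0.05, with 0 called by DESeq2 and 0 by limma-voom). AJUBA was the single member with an unadjusted p below 0.05, with 82.8 to 86.6 CPM in M2 EV above 77.9 to 79.1 in M0 EV (log2 0.11 ± 0.043, adjusted p = 1).

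**Figure D3:**
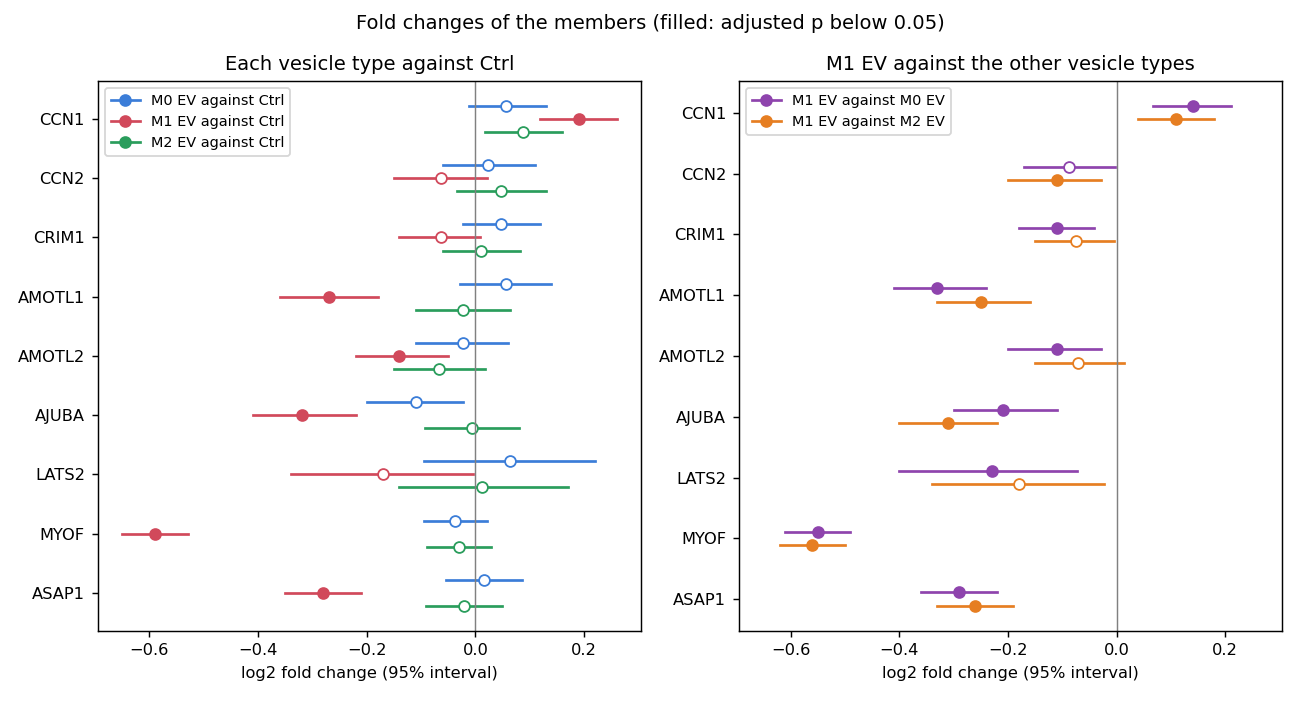
Log2 fold changes of the 9 tested members on the x axis, for each vesicle type against the same Ctrl libraries (left) and for M1 EV against M0 EV and M2 EV (right); points are edgeR estimates, bars are 95% intervals, and filled points have an adjusted p below 0.05. Against Ctrl the M1 EV points of MYOF (-0.59), AJUBA (-0.32), ASAP1 (-0.28), AMOTL1 (-0.27) and AMOTL2 (-0.14) are called lower and that of CCN1 (0.19) is called higher, while no M0 EV or M2 EV point is.

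Other genes of the pathway were taken from fixed lists. Their counts in M1 EV against Ctrl stand beside 13.7% of all tested genes called lower and 14.3% called higher. Of the coactivators and their DNA-binding partners, 8 of the 10 listed (YAP1, WWTR1, TEAD1 to TEAD4 and the vestigial-like cofactors VGLL1 to VGLL4) were tested in M1 EV against Ctrl, and 2 fell and 1 rose, with a median of -0.053. YAP1 itself had 235, 252 and 248 CPM in Ctrl and 239, 255 and 248 in M1 EV, ranges that overlapped nearly in full (log2 0.013, adjusted p = 0.823). WWTR1, which encodes TAZ, had 158, 165 and 152 CPM in Ctrl and 134, 136 and 139 in M1 EV, and fell without overlap (log2 -0.22, adjusted p = 3.57e-05). VGLL3, a cofactor that competes for TEAD, fell (log2 -0.16, adjusted p = 0.0301), and TEAD4 rose (log2 0.16, adjusted p = 0.0352), but neither call was stable. In DESeq2 the adjusted p was 0.107 for VGLL3 and 0.116 for TEAD4, and that of VGLL3 was 0.0696 with transcripts added up. That of VGLL3 was lost without Ctrl replicate 2 or 3 or M1 EV replicate 1 (adjusted p of up to 0.17), and that of TEAD4 without any 1 Ctrl library or M1 EV replicate 1 or 2 (up to 0.26). TEAD4 also lay above each Ctrl library in M0 EV (log2 0.12, adjusted p = 0.967) and M2 EV (log2 0.093, adjusted p = 0.891). It was not called in M1 EV against M0 EV (log2 0.035, adjusted p = 0.707) or against M2 EV (log2 0.062, adjusted p = 0.446). TEAD1 (log2 -0.096, adjusted p = 0.0669), TEAD2 (log2 -0.066, adjusted p = 0.436) and TEAD3 (log2 -0.04, adjusted p = 0.711) were not called, although TEAD1 passed without Ctrl replicate 3 (adjusted p = 0.0112), M0 EV replicate 1 (adjusted p = 0.0423) or M1 EV replicate 3 (adjusted p = 0.0417). With all libraries kept, TEAD1 passed in edgeR without a low-count filter (adjusted p = 0.0421), with only the groups compared (0.0462) and with the replicate number as a block (0.0418). Between vesicle types TEAD1 was called lower in M1 EV than in M0 EV, with libraries that overlapped (log2 -0.11, adjusted p = 0.0385). It was also called lower in M1 EV than in M2 EV (log2 -0.11, adjusted p = 0.0366). RNA levels say nothing of the phosphorylation or the place of these proteins, which were not measured.

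Of 24 tested Hippo kinases and upstream regulators 3 rose and 3 fell, with a median of -0.025. Among all tested genes 14.3% were called higher and 13.7% lower, shares that this list did not exceed. FAT4, an atypical cadherin, fell from 30.4 ± 2.15 to 19.1 ± 1.6 CPM (SD, n = 3; log2 -0.66, edgeR adjusted p = 1.74e-08). The scaffold genes FRMD6 (log2 0.19, adjusted p = 8.5e-06), WWC1 (log2 0.33, adjusted p = 1.86e-05) and WWC2 (log2 0.25, adjusted p = 7.47e-05), which promote LATS activation, rose. The other genes that fell, named here since they complete the count, were SAV1, the scaffold of the MST kinases (log2 -0.20, adjusted p = 0.00276), and PTPN14, a phosphatase that binds YAP (log2 -0.21, adjusted p = 0.00107). LATS1, the relative of LATS2, had a mean of 48.1 CPM in both groups. Of 8 tested family members of the 10 genes, ASAP2 was the one called (log2 -0.25, adjusted p = 1.95e-05), with 101, 97.7 and 101 CPM in Ctrl and 80.5, 85.3 and 85.9 in M1 EV.

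Of the targets of YAP and TEAD outside the 10, 20 were tested, and 9 of these fell and 5 rose (median -0.12). PTPN14, counted among the upstream regulators above, is on this list too and is among the 9. THBS1, a matrix glycoprotein, rose from 411 ± 2.57 to 661 ± 20.9 CPM (SD, n = 3; log2 0.69, edgeR adjusted p = 1.62e-19). The receptor tyrosine kinase gene AXL (log2 -0.34, adjusted p = 1.29e-12) and ARHGAP29 (log2 -0.33, adjusted p = 6.12e-10), fell. The extremes of the list, named here after their values were seen, were genes of low level: the endothelin gene EDN1 at 0.872 and 1.88 CPM in Ctrl and M1 EV (log2 1.10, adjusted p = 0.00438), and IGFBP3, an IGF-binding protein, at 3.23 and 1.79 (log2 -0.87, adjusted p = 0.00231). These targets thus moved in either direction, as the members did. All tested genes did so too, with 13.7% called lower and 14.3% higher, so this is not particular to the targets. Of 16 tested cytoskeletal targets of SRF and its actin-regulated cofactors MRTF, which share some genes with YAP, 7 rose and 2 fell, with a median of 0.027. TPM1 (log2 0.41), TAGLN2 (log2 0.28) and TPM4 (log2 0.16), genes of actin-binding proteins, rose, and CNN2 (log2 -0.39) fell. In M0 EV or M2 EV against Ctrl no gene of these lists was called. All lists were drawn up with earlier results of these libraries known, and their counts are no independent evidence of a direction.

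**Figure D4:**
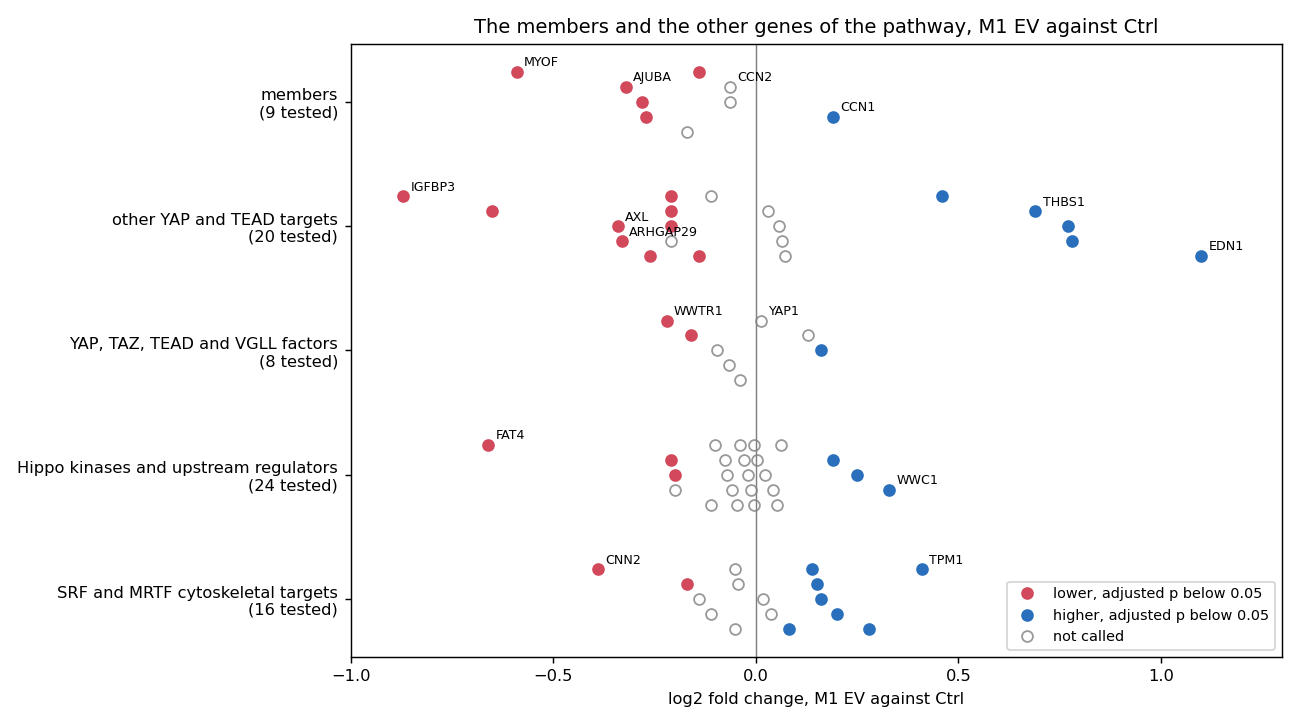
Log2 fold changes of M1 EV against Ctrl (x axis) for the 9 tested members and the tested genes of 4 pathway lists (y axis); each point is one gene, red where called lower, blue where called higher and open where not called, and height within a list has no meaning. The medians run from -0.17 for the members to 0.027 for the SRF and MRTF targets, and each of the 5 rows holds genes in both directions. PTPN14 is drawn both among the other targets and among the Hippo regulators.

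The libraries had 9699399 to 14384420 counts over all genes, and the first principal component, with 43.3% of the variance, set the M1 EV libraries (21.8 to 23.7) apart from all others (-9.76 to -5.98). The labelled melanoma origin was checked against 9 melanocyte lineage markers: 8 were below 1 CPM in Ctrl, with TYR and S100B at 0 in every library and SOX10 at 0 in all but the M2 EV group, and PAX3 was called higher in M1 EV (16.7 to 19.6 CPM, log2 0.23, adjusted p = 0.0355). The sum of the lineage markers was 17.7 to 20.1 CPM in Ctrl and 20.9 to 22.6 in M1 EV, and without PAX3 1.75 to 1.86 and 1.65 to 2.65. Markers of macrophages, the source of the vesicles, were summed beside the members' results. Of 11, all but CD68 were below 1 CPM in each group, with TYROBP at 0 in all libraries, and their sum without CD68 was 0.719 to 0.899 in Ctrl and 0.912 to 1.55 in M1 EV. CD68, which many cell types express, rose from 56.7 ± 3.68 to 66.8 ± 0.746 CPM (SD, n = 3; log2 0.24, edgeR adjusted p = 0.000246). Summed fibroblast markers, nearly all of it COL1A1, were 1649 to 1680.0 CPM in Ctrl and 1822 to 1898 in M1 EV. Summed epithelial markers, mostly KRT8, were 26.6 to 26.8 and 19.6 to 23.6, and summed endothelial markers 2.50 to 3.02 and 2.35 to 2.64. The part of these differences in the members' results was not tested.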

How the data were processed

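RNA of 12 MV3 libraries (directional poly(A), NovaSeq X Plus, per the labels' protocols) was analysed. Per the submitters' processing notes STAR 2.6.1b and HOMER 4.10 were used with hg38. The deposited table holds expected counts of 70507 RefSeq transcripts, all multiples of 0.5, without normalization. Transcripts were named with RefSeq GRCh38.p14 (69830) or GENCODE 29 (327). The 350 unnamed ones (0.0608% to 0.0643% of counts) were left out. One transcript per gene was kept and rounded to whole counts. One column name lacks a digit of the line's name and was matched to M0 EV replicate 1 by the rest of its name.

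Counts were fitted with edgeR 4.0.16 (R 4.3.3): default low-count filter for 4 groups, TMM scaling (factors 0.993 to 1.007), 1 term per group in a single fit (8 residual degrees of freedom; the biological coefficient of variation was 2.59%), 2-sided tests, called at an adjusted p below 0.05. The fit was tested on simulated data. Alternatives used DESeq2 1.42.0, limma-voom 3.58.1 and other settings. Members and lists were chosen with earlier results of these data known. Beside the members, YAP1, WWTR1 and TEAD1 to TEAD4, the named genes are up to 4 per list with the smallest adjusted p in M1 EV against Ctrl. LATS1, SAV1, PTPN14, EDN1, IGFBP3 and the markers PAX3 and CD68 were named outside this rule, after their values were seen. One gene that this rule takes is not reported here.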

Additional observations from a re-analysis of the deposited data

How the results depend on the processing

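The counts of genes and members called and each tested member were recomputed under 22 alternatives in each of 6 comparisons, and the other genes named by the rule in M1 EV against Ctrl. Of 198 such values of members in M1 EV against Ctrl, 196 kept direction and call, and 2, of AMOTL2, lost the call. In all comparisons 1128 of 1186 kept both, leaving out AJUBA and LATS2 in M2 EV against Ctrl under DESeq2, which gave no adjusted p. The genes called in M1 EV against Ctrl numbered 3681, with 2561 in DESeq2 and 3042 to 3847 without single libraries. Those called in M1 EV against M0 EV numbered 3312, and 2230 in DESeq2. In M1 EV against M0 EV the 7 members that fell became 4 with all transcripts added up, and 4 to 7 without single libraries (4 without M0 EV replicate 3). In M1 EV against M2 EV the 1 member that rose became 0 with transcripts added up and 0 to 1 without single libraries, and the 3232 genes called became 2105 with DESeq2. CCN1, CCN2, CRIM1 and LATS2 have 1 transcript each, so adding up transcripts did not change their own counts. The sum can count reads shared by transcripts more than once. In Ctrl replicate 1 all transcripts held 31805954.5 counts, and those kept at 1 per gene held 9951278. The 2 genes called in M0 EV against Ctrl became 1 with DESeq2, 51 with no low-count filter, 0 with transcripts added up, 1 with M0 EV replicates 2 and 3 summed, and 0 to 87 without single libraries (87 without M0 EV replicate 1). The 6 in M2 EV against Ctrl became 2 with DESeq2, 33 with no filter, 62 with only the groups compared, 0 with transcripts added up, and 0 to 48 without single libraries (48 without M0 EV replicate 1). The 0 in M2 EV against M0 EV became 12 with no filter and 0 to 37 without single libraries (37 without M0 EV replicate 1). A 7-letter TEAD motif (ACATTCC or GGAATGT) was found in 2 of the 9 windows, in place of 5, and in 3.46% of all windows in place of 14%. The hexamer on the gene's strand alone was in 4 of the 9 and in 7.14% of all. The causes of these moves were not tested.

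Signs that changed belonged to values that were not called. Without single libraries the log2 fold change in M0 EV against Ctrl ran from -0.0041 to 0.063 for CCN2, -0.011 to 0.054 for ASAP1 and -0.025 to 0.11 for LATS2, and that of ASAP1 was -0.001 with M0 EV replicates 2 and 3 summed. In M2 EV against Ctrl it ran from -0.044 to 0.014 for AJUBA, -0.027 to 0.072 for LATS2 and -0.015 to 0.039 for CRIM1, and that of AJUBA was 0.0011 with upper-quartile scaling. In M2 EV against M0 EV it ran from -0.017 to 0.051 for CCN2, -0.014 to 0.025 for MYOF and -0.096 to 0.036 for LATS2, and in M1 EV against Ctrl from -0.013 to 0.038 for YAP1.

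The replicate numbers did not pair the samples: the deviations of same-numbered libraries correlated at -0.0533 to 0.0963, with 0 of 18 pairs over 0.1. With the replicate number as a block, 21 genes were called in M0 EV against Ctrl and 1 in M2 EV against M0 EV, no call of a member changed, and TEAD1 was called in M1 EV against Ctrl (adjusted p = 0.0418). Choosing the longest transcript by a length column was not run, since the table has no such column. Depth limits ANKRD1, with a count of 10 in all, and widens the error of LATS2.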
